A study of Homo sapiens with 6 samples.

Results

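The metallothionein and zinc response genes examined here are 8 genes chosen by symbol from the 58735 gene entries of the deposited tables: the metallothioneins MT2A, MT1E, MT1X, MT1F, MT1G and MT1M, the transcription factor gene MTF1, and the zinc transporter gene SLC30A1. Of these, 6 passed the filter on low counts, and MT1G and MT1M did not. None of the 6 passed the test between slow-cycling and rapid-cycling cells after adjustment over all genes, where 2.07% of the 15881 tested genes did. Of the 6, MT1E alone had all slow-cycling libraries below all rapid-cycling ones, as did 13.4% of all tested genes.

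Metallothioneins are small cysteine-rich proteins of the cytosol that bind zinc, copper and cadmium. When free zinc rises, the zinc finger protein MTF1 binds short metal response elements in promoters and raises transcription of the metallothionein genes and of SLC30A1, whose product ZnT1 exports zinc from the cytosol. Metallothionein transcription also responds to glucocorticoids and oxidative stress, and MT2A is commonly the most abundant form in human epithelial and breast cancer cells.

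The cells were MDA-MB-231, an established human triple-negative breast cancer line, labelled wild type and grown in high-glucose DMEM with serum and antibiotics. All were stained with the membrane dye PKH26, which is diluted at each division, and cultured for 12 days before sorting. The 1% of cells brightest for the dye formed the slow-cycling group (SCC, 3 libraries), and cells with less dye formed the rapid-cycling group (RCC, 3 libraries). One label calls the RCC gate moderate and another calls it low, the sort is defined by dye and not by a measured division rate, and both groups come from this 1 line. The libraries are described as biological replicates, with no word on whether they came from separate cultures, so p-values measure the spread between these libraries.

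Total counts ran from 19498054 to 27831824 in the SCC libraries and from 17655855 to 22746267 in the RCC libraries. SCC replicate 1 stood apart: its counts differed from the other SCC libraries by a chi-square of 28.9 and 21.7 per degree of freedom, against 3.3 to 4.3 between all other pairs within a group. Its log2 deviation from the 6-library mean had a median of -0.24 in the tenth of tested genes with the lowest GC content and 0.40 in the tenth with the highest, so log2 fold changes of the named genes are also given without this library. VIM (752 to 835 CPM, counts scaled to library size) and CD44 (336 to 367 CPM) were high in every library. ESR1 was at most 0.696 CPM, PGR was at 0 in 5 of 6 libraries and EPCAM was at 3.61 to 5.73 CPM. The values of VIM, CD44, ESR1, PGR and EPCAM match a mesenchymal triple-negative line. The other listed markers, ERBB2 at 71.3 to 106 CPM and the keratin gene KRT18 at 185 to 223 CPM, do not add to that match. Both were clearly expressed in every library. The 8 markers of other cell types summed to 15.2 to 21.7 CPM in SCC and 11.7 to 13.7 CPM in RCC, mostly COL1A1, with ALB at 0 in all 6 libraries and CD3E in 5. Their part in the results was not tested.

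The coding sequences below show how alike the metallothionein genes are, which bears on how reads can be assigned among them. Each is the 186-base coding sequence of a 3-exon GENCODE transcript on GRCh38 chromosome 16, 5′ to 3′ on the plus strand, and capitals mark the bases that differ from MT2A.
MT2A: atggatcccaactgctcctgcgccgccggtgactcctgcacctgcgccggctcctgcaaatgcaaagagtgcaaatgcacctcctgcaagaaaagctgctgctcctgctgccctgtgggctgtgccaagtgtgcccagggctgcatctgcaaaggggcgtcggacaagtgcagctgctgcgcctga
MT1E: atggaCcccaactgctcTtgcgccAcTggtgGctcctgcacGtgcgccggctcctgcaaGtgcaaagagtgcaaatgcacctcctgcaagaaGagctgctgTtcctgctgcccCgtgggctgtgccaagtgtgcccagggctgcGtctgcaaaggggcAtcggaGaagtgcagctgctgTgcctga
MT1X: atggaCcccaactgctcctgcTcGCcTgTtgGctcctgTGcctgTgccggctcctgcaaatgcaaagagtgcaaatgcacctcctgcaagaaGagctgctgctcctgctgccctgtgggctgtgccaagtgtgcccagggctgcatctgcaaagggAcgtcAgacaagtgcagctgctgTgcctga

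MT1E and MT1X each differed from MT2A at 14 of the 186 bases, 92.5% identity, and were 90.9% identical to each other. MT1G, MT1F and MT1M were 95.2%, 91.4% and 89.8% identical to MT2A. The untranslated parts of the transcripts differ more. Over the whole MT1E transcript, 5.34% of 50-base words also occurred in a transcript of another gene, and the share was 4.88% for MT2A and 45.1% for MT1X. With 100-base words the share was 0 for MT1E and MT2A and 19.1% for MT1X, whose words are shared with AC026461.1, a gene on the same strand that overlaps it and had 0 counts in all 6 libraries. How the authors assigned reads that match several genes, and the read length, are not given in the sources used here, so the split of counts within the family is uncertain, most of all for MT1X.

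Metal response elements were counted in promoter windows because they are the DNA sites that MTF1 binds. RefSeq windows (GRCh38.p14) from 250 bases before to 50 bases after the gene start were matched for 4 of the 8 genes: MT2A, MT1X, SLC30A1 and MTF1. The letters searched were TGCACNC and TGCGCNC on both strands. The MT2A window held 8 matches, MT1X held 4, SLC30A1 held 2 and MTF1 held 0. Of all 34943 windows, 29.5% held at least 1 match, 2.3% held 3 or more and 0.02% held 8 or more. One match upstream of the RefSeq start in each of 3 genes, at a similar distance, is shown on the gene's strand with the matched letters in capitals. It lies at chr16:56608520-56608546 in MT2A, at chr16:56682407-56682433 in MT1X, and at chr1:211579194-211579220 in SLC30A1, where the match is on the opposite strand.
MT2A: gcggggctttTGCACTCgtcccggctc
MT1X: gcggggcctcTGCGCCCggccctcttc
SLC30A1: cgggggttccGAGTGCAaagcaaagtt
The capitals begin 54 bases before the start in MT2A, 53 in MT1X and 49 in SLC30A1. These matches are letters in a window, with no measurement of MTF1 binding in the data.

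MT2A and MT1E supplied nearly all metallothionein RNA. Per length, in the deposited FPKM (fragments scaled by gene length and library size), MT2A had the highest level of the 8 genes, 288 ± 15.7 in SCC and 317 ± 27.6 in RCC (SD, n = 3 each here and throughout). MT1E followed at 96.6 ± 22.1 and 141 ± 15.8 FPKM. SLC30A1 at 7.81 ± 0.294 and 7.89 ± 0.745, MT1X at 4.74 ± 0.776 and 4.66 ± 0.375, and MTF1 at 3.35 ± 0.193 and 3.46 ± 0.625 FPKM lay more than an order of magnitude lower, and MT1F was at 0.235 ± 0.0866 and 0.340 ± 0.150 FPKM. MT1X and MTF1 overlapped over the 6 libraries, and the other neighbours in this order did not. The position of MT1X rests on the length used: the deposited length is 1773 bases and the coding transcript 450 bases, and per kilobase of coding transcript MT1X stood above SLC30A1, at 18.8 ± 2.98 against 7.86 ± 0.277 in SCC.

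**Figure D1:**
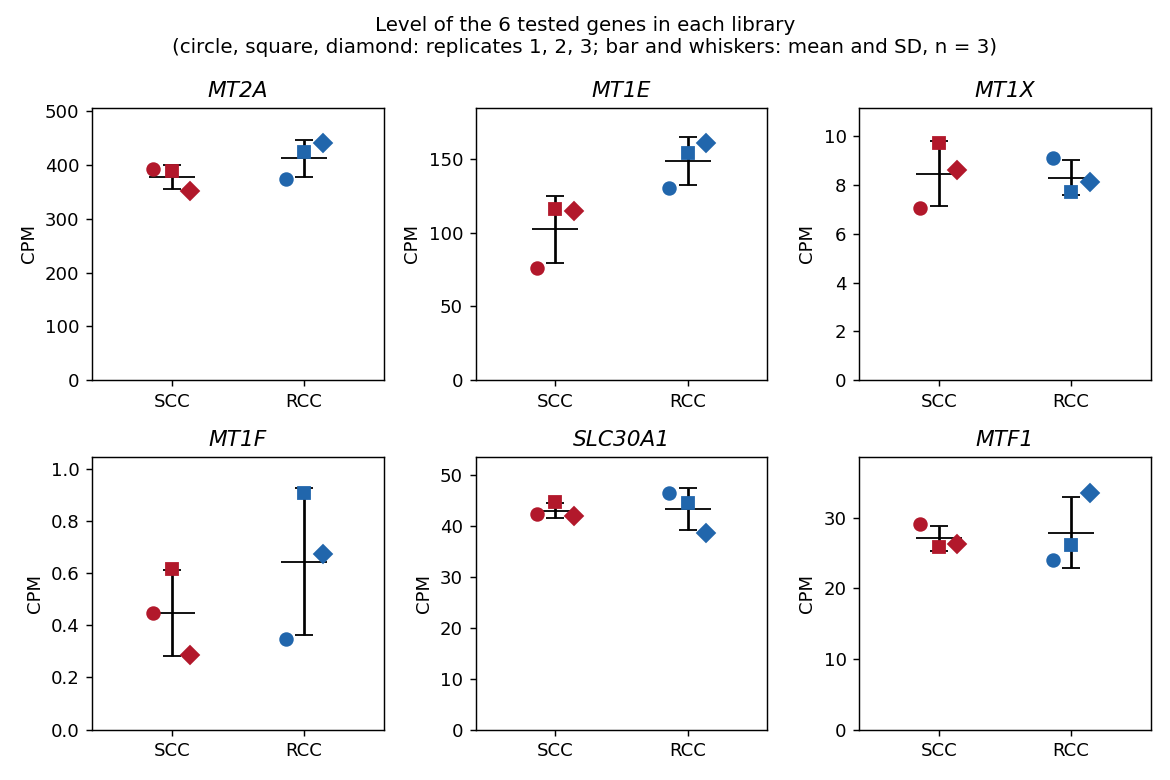
Levels of the 6 tested genes in each library, in CPM on a linear axis from 0, with the mean and SD of 3 libraries per group. The MT1E points of the 2 groups do not overlap (76.0 to 116 in SCC, 130.02 to 161 in RCC), and those of the other 5 genes do.

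None of the 6 tested genes was called higher or lower in SCC at an adjusted p under 0.05 by edgeR's quasi-likelihood test with Benjamini-Hochberg adjustment, where 2.07% of the 15881 tested genes were called (1.69% higher and 0.378% lower). Before adjustment 1 gene, MT1E, passed the threshold of 0.05, against 19.7% of all tested genes (11.4% higher and 8.27% lower). DESeq2 called 1 of the 6, MT1E, where 4.09% of genes were called. limma on FPKM called 0 under each of 3 settings, where 1.33%, 1.21% and 0.13% of genes were called. MT1F was below its filter on low FPKM and was tested only in the setting without that filter, as were MT1G and MT1M. The groups did not overlap for 1 of the 6 genes, MT1E, against 27.8% of all tested genes (14.4% with SCC higher and 13.4% with SCC lower). The median log2 fold change (SCC over RCC) of the 6 was -0.082, from -0.54 to 0.02, beside 0.003 over all tested genes. It was -0.122 without SCC replicate 1. These are bulk libraries, in which a lower level in every cell and a smaller share of cells with a high level cannot be told apart.

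MT2A (ENSG00000125148, chr16:56608199-56609497, plus strand), the only human MT2 gene with a functional product, was at 392, 388 and 352 CPM in SCC replicates 1, 2 and 3 and at 374, 423 and 440.3 CPM in RCC. SCC replicate 3 was the lowest and RCC replicates 2 and 3 the highest, and the groups overlapped through RCC replicate 1. On the log2 scale the fold change was -0.13 (SE 0.078, 95% interval -0.30 to 0.04), a 0.916-fold level, with an edgeR adjusted p of 0.375. Without SCC replicate 1 it was -0.15, with an adjusted p of 0.110. The value moved most without RCC replicate 1 (-0.20, 95% interval -0.39 to -0.02, adjusted p 0.349), without RCC replicate 3 (-0.086) and with the GC offset described for MT1E (-0.20, interval -0.33 to -0.06, adjusted p 0.0901).

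MT1E (ENSG00000169715, chr16:56625475-56627112, plus strand) encodes one of the inducible MT1 proteins. It was at 76.0, 116 and 115 CPM in SCC replicates 1, 2 and 3 and at 130.02, 154 and 161 CPM in RCC. Every SCC library was below every RCC library, and SCC replicate 1 was far below the other 2. The means were 102 ± 22.8 and 148 ± 16.2 CPM. The log2 fold change was -0.54 (SE 0.14, 95% interval -0.86 to -0.22), a 0.689-fold level with an interval of 0.552 to 0.860. Its unadjusted p was 0.0035 and its edgeR adjusted p 0.0881, past the threshold before and not after adjustment.

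The MT1E call depended on the processing. MT1E was lower in SCC in all 15 alternatives that kept the replicates unpaired, and called in 5 of them, with adjusted p-values from 1.1e-07 to 0.507. The shared direction adds no separate support, because the alternatives reuse the same libraries and the groups did not overlap. Leaving out SCC replicate 1 gave a smaller difference with a smaller SE, a log2 fold change of -0.36 (SE 0.064) with an adjusted p of 6.5e-04. That fit called 2.1% of genes lower. Its p-values rest less on the spread of each gene's own libraries, and more on the spread shared across genes, than those of the reported fit. Leaving out SCC replicate 2 gave -0.65 with an adjusted p of 0.031 where 1.59% were called lower, and leaving out any one of the other 4 libraries gave adjusted p-values from 0.104 to 0.295. DESeq2 gave -0.54 with an adjusted p of 0.0064 where 1.07% of genes were called lower. An offset for GC content per library gave -0.59 with an adjusted p of 0.0226 where 1.54% were called lower. Relaxing the low-count filter to 1 count gave -0.53 with an adjusted p of 1.1e-07 where 0.838% were called lower. The SE was 0.085 there, against 0.14 in the reported fit of the same libraries. The p-values of that relaxed fit take practically nothing from the spread of each gene's own libraries and rest on the spread shared across genes.

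In SCC replicate 1 MT1E deviated from the 6-library mean by a log2 of -0.68, while the 969 tested genes within 1 point of its GC content (53.5%) had a median deviation of 0.12 in that library. MT2A, with a GC content of 53.9%, deviated by -0.01 there. What set the MT1E value of this library was not tested.

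**Figure D2:**
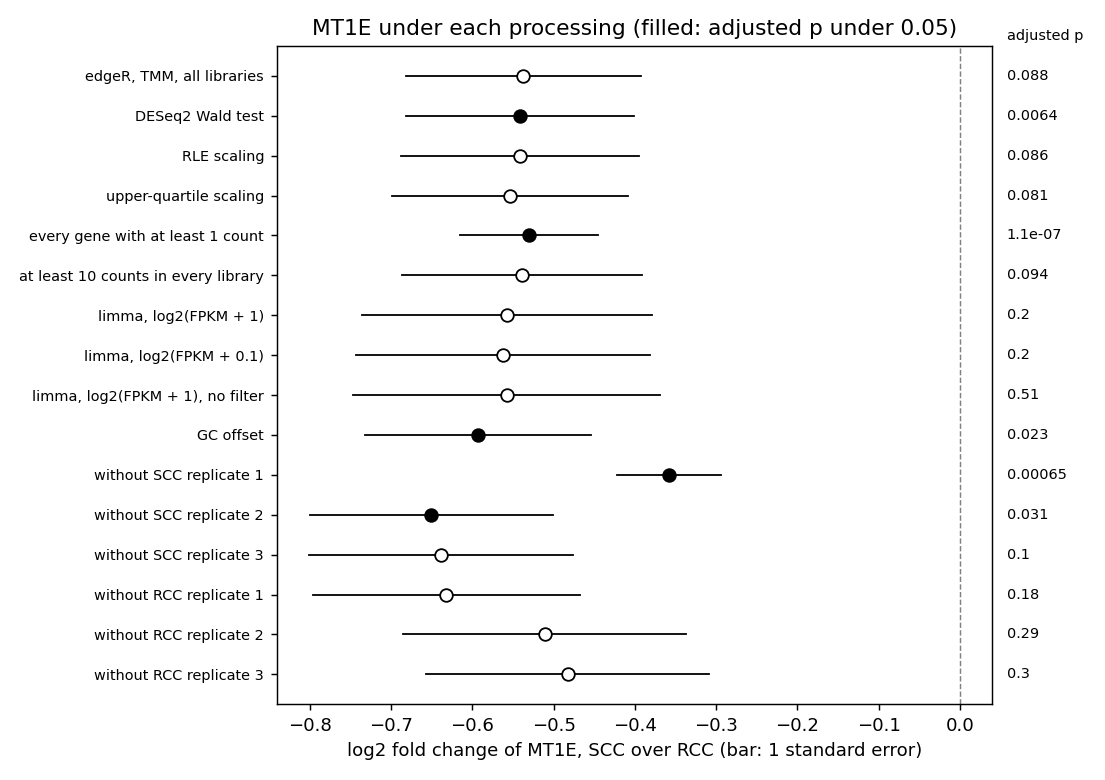
The log2 fold change of MT1E, SCC over RCC, with 1 standard error, under the reported fit and 15 alternatives that keep the replicates unpaired. All points lie below 0, from -0.65 to -0.36, and filled points, 5 of the alternatives, have an adjusted p under 0.05.

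MT1X (ENSG00000187193, chr16:56682424-56684196, plus strand), another inducible MT1 gene, was at 7.05, 9.71 and 8.63 CPM in SCC and 9.09, 7.69 and 8.11 CPM in RCC. The lowest and the highest value were both in SCC. Its log2 fold change was 0.02 (95% interval -0.31 to 0.35, edgeR adjusted p 0.951), 0.14 without SCC replicate 1 (adjusted p 0.639), and of the other sign, -0.046, with the GC offset. A difference of the size seen for MT1E lay outside that interval.

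MT1F (ENSG00000198417, chr16:56657694-56660698, plus strand) had 12, 12 and 6 counts in SCC and 8, 19 and 12 counts in RCC. Its log2 fold change of -0.51 had an interval of -1.56 to 0.54 (edgeR adjusted p 0.559), and it was -0.51 without SCC replicate 1 (adjusted p 0.712). Single libraries moved it further: it was -0.17 without RCC replicate 2, -0.29 without SCC replicate 3, -0.79 without SCC replicate 2 and -0.84 without RCC replicate 1. With so few counts, a difference of the size seen for MT1E was not detectable for MT1F.

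MT1G (ENSG00000125144, chr16:56666731-56668065, minus strand) had 1 count in all, in SCC replicate 2. MT1M (ENSG00000205364, chr16:56632233-56633986, plus strand) had 1 count in all, in SCC replicate 3. A count of 0 allows up to 3 counts, which is 0.111 to 0.168 CPM across the libraries, for counting error only, so both transcripts were at or below the limit of detection and give no fold change.

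Summed over the 6 metallothionein genes, a quantity that does not depend on how counted reads are split among them, the level was 476, 515 and 476 CPM in SCC and 513, 586 and 610 CPM in RCC. SCC replicate 2 just exceeded RCC replicate 1, so the groups overlapped. The means were 489 ± 22.3 and 569.7 ± 50.3 CPM, a 0.858-fold level or -0.22 on the log2 scale, beside a pooled SD within groups of 0.103 on that scale. Without TMM scaling (the correction edgeR makes for library composition) the groups did not overlap, 461 to 516 CPM in SCC and 519 to 617 CPM in RCC. Without SCC replicate 1 the difference was -0.20 on the log2 scale.

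MT1E took a smaller share of the sum in every SCC library than in any RCC library, a difference given without a test. It was 16.0%, 22.5% and 24.2% of the summed counts in SCC and 25.3%, 26.3% and 26.4% in RCC, with means of 20.9% ± 4.34 and 26.01% ± 0.581. MT2A was 82.5%, 75.4% and 74.0% in SCC and 72.8%, 72.2% and 72.2% in RCC. Together these 2 genes made up 98.0% to 98.6% of the counts in every library, so their shares are 1 observation seen from both sides. SCC replicate 1 was the farthest out, and without it the SCC mean of the MT1E share was 23.3% over 2 libraries. Of all tested genes, 27.8% had levels that did not overlap between the groups. That figure is for levels of single genes in either direction, and none was computed for shares within a family.

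**Figure D3:**
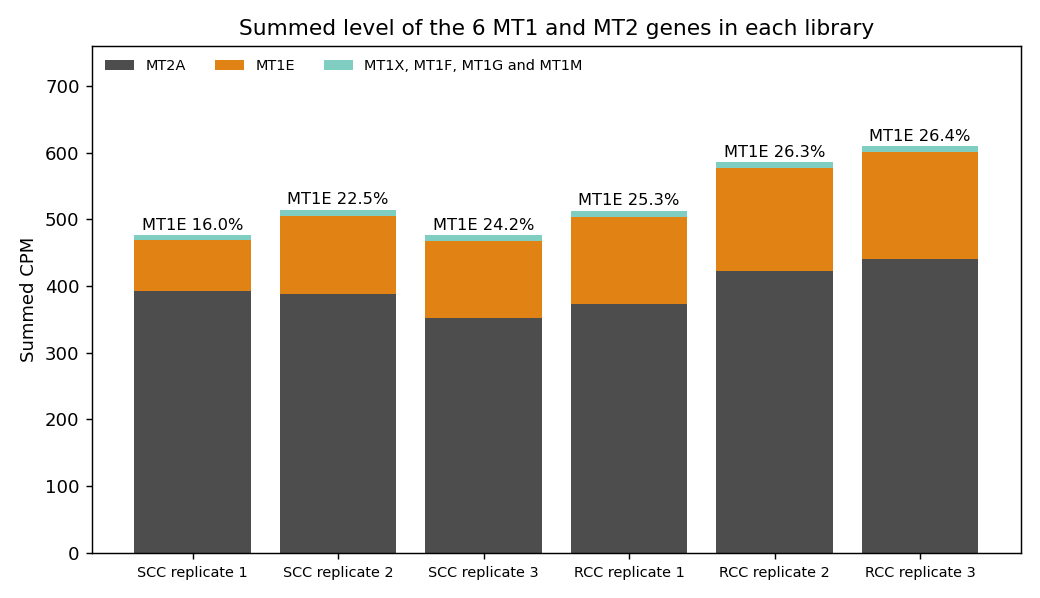
Summed CPM of the 6 metallothionein genes in each library, as bars stacked by gene from 0. The SCC sums are 476, 515 and 476 and the RCC sums 513, 586 and 610, and the MT1E part of the bar is smallest in SCC replicate 1.

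MTF1 (ENSG00000188786, chr1:37809567-37859620, minus strand), which encodes the zinc-sensing transcription factor, was at 29.1, 25.9 and 26.2 CPM in SCC and 24.0, 26.1 and 33.6 CPM in RCC. RCC replicate 3 was the highest and RCC replicate 1 the lowest, so the SCC values lay inside the RCC range. Its log2 fold change was -0.04 (95% interval -0.31 to 0.24, edgeR adjusted p 0.888), and -0.09 without SCC replicate 1 (adjusted p 0.716). Without RCC replicate 3 the sign turned, to 0.11. A gene on the opposite strand, AL929472.4, overlaps MTF1 and had 2 counts over all libraries. The level of the MTF1 transcript does not measure the activity of the protein, which is set by zinc binding.

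SLC30A1 (ENSG00000170385, chr1:211571568-211578742, minus strand), the zinc exporter gene, was at 42.3, 44.8 and 42.0 CPM in SCC and 46.6, 44.6 and 38.7 CPM in RCC. Again the SCC values lay inside the RCC range. The log2 fold change was -0.01 (95% interval -0.20 to 0.18, edgeR adjusted p 0.959), and 0.00029 without SCC replicate 1 (adjusted p 0.999). With the GC offset it was 0.12. SLC30A1, at 38.0% GC, had the lowest GC content of the 8 genes.

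**Figure D4:**
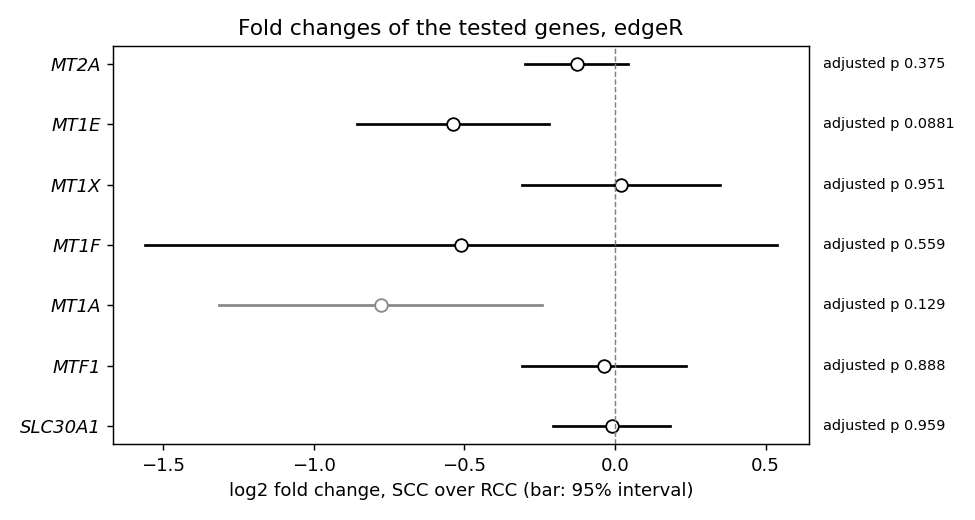
Log2 fold changes (SCC over RCC) of the tested genes by edgeR with 95% intervals; MT1A is the added family gene. The interval of MT1E (-0.86 to -0.22) and that of MT1A (-1.31 to -0.24) lie below 0, and the intervals of MT2A, MT1X, MT1F, MTF1 and SLC30A1 include 0.

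The family genes outside the 8 were mostly silent. Of 14 further metallothionein genes and pseudogenes, 1 was tested, MT1A, and the other 13 had at most 8 counts in any library, with 5 of them at 0 in all 6 libraries. MT1A was at 1.93, 2.71 and 3.70 CPM in SCC and 3.91, 5.26 and 5.03 CPM in RCC. As for MT1E, the groups did not overlap and SCC replicate 1 was lowest. The log2 fold change was -0.78 (SE 0.24, 95% interval -1.31 to -0.24, edgeR adjusted p 0.129), from only 52 to 110 counts per library, and it was -0.55 without SCC replicate 1 (adjusted p 0.149). It passed the threshold when the low-count filter was relaxed to 1 count, with an adjusted p of 0.0165 and the limit given for MT1E in that fit. Whether reads of MT1E were counted for MT1A was not tested.

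None of the other zinc or copper transport genes passed the test in the reported fit. Over all tested genes 2.07% were called. Of the 6 tested SLC30 exporters other than SLC30A1, 0 were called and the median log2 fold change was -0.078, with the sign turned to 0.061 by the GC offset and -0.044 without SCC replicate 1. The smallest p was that of SLC30A5, a zinc transporter of the secretory pathway, at 45.5 ± 0.628 CPM in SCC and 51.0 ± 3.80 CPM in RCC (log2 fold change -0.17, edgeR adjusted p 0.275). The GC offset moved SLC30A5 to -0.063 (adjusted p 0.691), and it was -0.15 without SCC replicate 1. Of the 11 tested SLC39 importers, 0 were called and the median was 0.053, or 0.018 without SCC replicate 1. SLC39A10, a zinc importer of the cell membrane, had the smallest p, at 86.5 ± 8.18 CPM in SCC and 101 ± 4.28 CPM in RCC (log2 fold change -0.23, adjusted p 0.170). The GC offset moved SLC39A10 to -0.093, and leaving out SCC replicate 1 gave -0.17 (adjusted p 0.0870).

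Among 11 tested copper-handling genes 0 were called and the median was -0.09, or -0.093 without SCC replicate 1. The smallest p was that of COX17, the copper chaperone of cytochrome oxidase, at 23.3, 36.5 and 32.3 CPM in SCC and 39.0, 39.6 and 38.8 CPM in RCC. All SCC libraries were below all RCC libraries, with SCC replicate 1 lowest. The log2 fold change was -0.36 (edgeR adjusted p 0.198), -0.19 without SCC replicate 1, and -0.51 with an adjusted p of 0.042 without SCC replicate 2. With the low-count filter relaxed to 1 count, the adjusted p of COX17 was 0.0283, with the limit given for MT1E in that fit.

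Of the other genes that metals and oxidants induce, 11 were tested, 1 was called higher and 0 lower, with a median log2 fold change of 0.193 and before adjustment 5 passed the threshold of 0.05 as higher and 1 as lower. Over all tested genes 1.69% were called higher and 0.378% lower, and 11.4% and 8.27% passed before adjustment. Like all lists here, this one was chosen with earlier results of these data known. The called gene, HSPA1B, an inducible HSP70 chaperone, rose from 76.9 ± 3.80 CPM in RCC to 108 ± 14.01 CPM in SCC (log2 fold change 0.49, edgeR adjusted p 0.0241). HSPA1B was at 0.39 without SCC replicate 1 and called there too, with the limit given for MT1E in that fit. In that fit, which called 3.93% of genes higher, HSPA1A (0.69) and the HSP40 gene DNAJB1 (0.24) were called as well, and with the GC offset, which called 3.29% higher, HSPA1B (0.34) and DNAJB1 (0.22) were. HSPA1B missed the threshold without SCC replicate 3 (0.053) or without RCC replicate 1 (0.161), 2 (0.0953) or 3 (0.128), and with limma on FPKM (0.0887 to 0.271). Its counts are uncertain because HSPA1A is a near-identical copy.

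Of 8 tested glucocorticoid-responsive genes, 4 were called higher in SCC and 0 lower, and the median log2 fold change was 0.509, or 0.54 without SCC replicate 1. Over all tested genes 1.69% were called higher and 0.378% lower, and this list was chosen with earlier results of these data known. PER1, a circadian repressor that glucocorticoids induce, rose from 13.0 ± 1.09 to 32.1 ± 5.28 CPM (log2 fold change 1.30, edgeR adjusted p 3.5e-04). KLF9, a zinc finger repressor, rose from 4.28 ± 0.552 to 8.62 ± 1.04 CPM (1.01, adjusted p 0.0080), though without RCC replicate 2 or 3 its adjusted p was 0.0587 and 0.0532.

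SGK1, a kinase that controls ion transport, rose from 27.2 ± 0.883 to 42.1 ± 1.73 CPM (log2 fold change 0.63, edgeR adjusted p 0.0017). TSC22D3, which encodes the anti-inflammatory protein GILZ, rose from 8.17 ± 1.59 to 13.2 ± 0.367 CPM (0.68, adjusted p 0.0386). The TSC22D3 call was lost without SCC replicate 3 (0.0913) or without RCC replicate 1 (0.158), 2 (0.0620) or 3 (0.145). Without SCC replicate 1 PER1 was at 1.17, KLF9 at 0.91, SGK1 at 0.66 and TSC22D3 at 0.66. Each was called, with the limit given for MT1E in that fit. limma on log2(FPKM + 1) called PER1 (adjusted p 0.0106) and SGK1 (0.0196) and not KLF9 (0.0678) or TSC22D3 (0.109), and without its filter on low FPKM it called none of the 4 (0.0728 to 0.321). FKBP5, a cochaperone of the glucocorticoid receptor and also a glucocorticoid target, was at -0.23 with an adjusted p of 0.127, and at -0.20 with 0.0504 without SCC replicate 1. PER1, KLF9 and SGK1 also answer to other signals, and no glucocorticoid or metal was varied in this experiment.

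**Figure D5:**
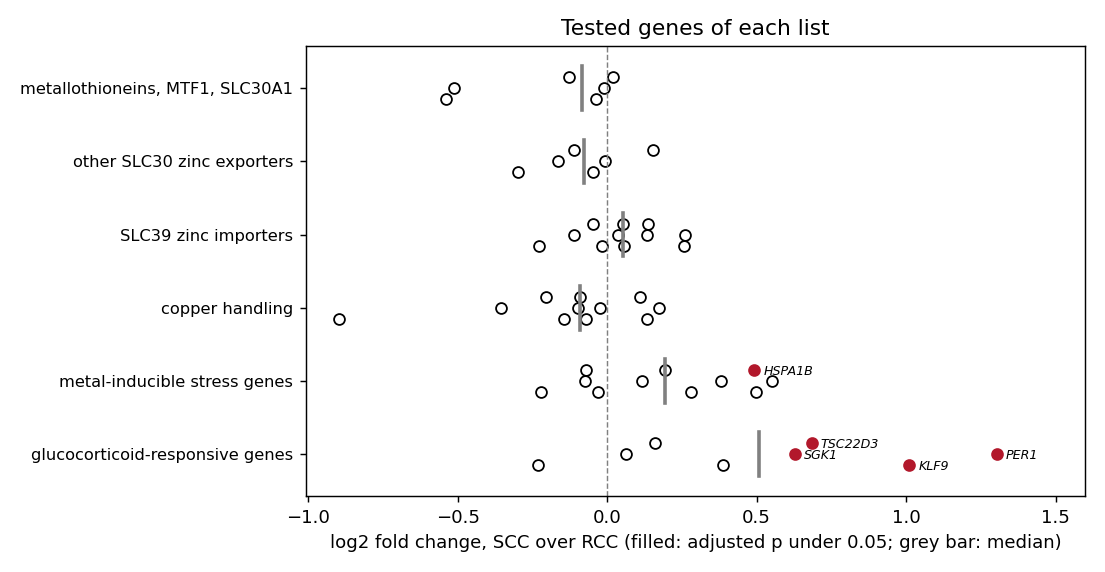
Log2 fold changes (SCC over RCC) of the tested genes in each list, 1 point per gene, with filled points at an adjusted p under 0.05 and a grey bar at the median. The zinc and copper lists have medians between -0.09 and 0.053 and no filled point. The metal-inducible list has 1 filled point and a median of 0.193. The glucocorticoid-responsive list has 4 filled points and a median of 0.509. All lists were chosen with earlier results of these data known. Over all tested genes 1.69% were called higher.

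The genes whose levels ran most like MT2A over the 6 libraries, among 10912 genes with a mean of at least 5 CPM, were PPP1R14BP3 (Pearson's r 0.976), PRICKLE1 (0.975), TMEM231 (0.966), ABCB10 (0.964) and FUT8 (0.962). None is a metallothionein or a zinc transporter, and 29 genes exceeded an r of 0.9. PPP1R14BP3 was at 22.4, 22.6 and 20.2 CPM in SCC and 20.9, 23.5 and 24.7 CPM in RCC, low in SCC replicate 3 and high in RCC replicates 2 and 3 as MT2A was. These r values are descriptions over 6 libraries that also share the 2 groups.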

How the data were processed

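TRIzol was used for RNA and a NEBNext Ultra kit for the libraries, per the labels' protocols. Alignment with HISAT2 2.0.5 and counting with featureCounts 1.5.0-p3 are named in the submitters' processing notes. The genome build, strand setting and treatment of ambiguous reads are not given in the sources used here; all 58735 entries of the deposited table match GENCODE release 29 (GRCh38) by ID and position. The deposited raw counts per gene were tested with edgeR 4.0.16 (R 4.3.3): filterByExpr with a minimum count of 10, TMM, quasi-likelihood test of SCC against RCC over 6 libraries, Benjamini-Hochberg adjustment over 15881 genes. CPM values are TMM-scaled. FPKM values were computed by the authors and deposited; their scale per library was 0.984 to 1.02 times the summed count. Alternatives used DESeq2 1.42.0, limma 3.58.1 with pseudocounts of 1 and 0.1, other scalings and filters, a GC offset (15874 genes with GC content from GENCODE transcripts), a replicate block, and each library left out. The script was tested on simulated data. The members and lists were chosen with earlier results of these data known. Text names all 8 members, the called genes of each list or its smallest p, and the 5 genes most like MT2A; HSPA1A, DNAJB1, FKBP5, AC026461.1 and AL929472.4 were named after their values were seen. Intervals and floors cover counting error or library spread only.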

Additional observations from a re-analysis of the deposited data

How the results depend on the processing

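With all genes, 268 were called higher and 60 lower in SCC. These counts were 480 and 170 with DESeq2, 995 and 315 with every gene of at least 1 count, 523 and 245 with the GC offset, 130 and 36 with limma on log2(FPKM + 1), 117 and 34 with a pseudocount of 0.1, and 48 and 1 with no filter. Leaving out 1 library gave 99 to 642 higher and 8 to 343 lower. The cause was not tested. Of the 6 zinc genes tested in the reported fit, 0 were called lower, against 0.378% of all tested genes. MT1E alone was called lower with DESeq2 (1.07% of genes called lower), with every gene of at least 1 count (0.838%) and with the GC offset (1.54%). With a library left out 0 to 1 were called lower, against 0.0491% to 2.1% of genes. MT1E was lower throughout. MT1X turned to -0.046 with the GC offset and ran from -0.10 to 0.14 with a library left out. SLC30A1 turned to 0.12 with the GC offset and ran from -0.092 to 0.037, and MTF1 ran from -0.15 to 0.11. With a library left out MT2A ran from -0.20 to -0.086 and MT1F from -0.84 to -0.17. The summed metallothionein level, -0.22 on the log2 scale, was -0.24 in FPKM, -0.25 without TMM, -0.23 per kilobase of coding transcript (an alternative chosen after seeing the data) and -0.29 to -0.17 with a library left out.

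The replicate numbers were checked for pairing: deviations of same-numbered SCC and RCC libraries correlated at -0.009, 0.025 and -0.079. Of the 6 libraries, 1 correlated best with its own number. The check gave no sign of pairing by number, but with 3 libraries a group, and SCC replicate 1 standing apart, it cannot exclude paired cultures. With the replicate block 106 genes (0.667%) were called lower, MT1E among them (-0.56, adjusted p 0.0031), the 1 zinc gene called. With the replicate block and GC offset 621 were called higher and 430 (2.71%) lower. MT1E (-0.62) and MT2A (-0.19, adjusted p 0.0359) were among those lower, which makes 2 zinc genes. MT1X was at -0.055 and SLC30A1 at 0.12. MT1A, the added family gene, was also called lower in that fit (-0.82, adjusted p 0.0180). With 3 libraries a group and few counts for MT1F, MT1G and MT1M, depth limits what can be seen of those genes.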
